A study of Homo sapiens with 4 samples.

Results

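Plasminogen activators, the urokinase receptor, a set of serpins and a plasminogen receptor were followed in AGS cells, an established human gastric adenocarcinoma line, as 9 genes of the 51103 in the tables (PLAU, PLAUR, PLAT, SERPINE2, SERPINB2, SERPINB5, SERPINB8, SERPINI1 and PLGRKT). They were picked by gene name with earlier results of these libraries known, so their values are a description. The FGF2 group had received recombinant human fibroblast growth factor 2, a growth factor that acts through FGF receptors and the ERK cascade, at 20 ng/mL for 24 h. All cells were grown in DMEM with fetal bovine serum. The treatment of the other group is labelled NC, which is not spelled out, and the protocol attached to it is the same text, FGF2 and harvest after 24 h included, so what the NC cells received in place of FGF2 is not known here. Each group has 2 polyadenylated RNA libraries, with 13790335 and 27598608 counts for FGF2 and 14073340 and 27325697 counts for NC.

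The libraries of a group could not be treated as separate samples. Library 1 exceeded library 2 at only 2 genes in either group, which is the pattern of library 2 holding the reads of library 1, so each group was taken as 1 sample (n = 1) and no test between groups was made. Levels are given in FPKM, the authors' counts divided by exon length and library size. Fold changes compare the deeper libraries on the log2 scale, with an exact 95% interval that covers counting error only and not the spread between cultures. Within a group, library 1 and the other reads of library 2 differed by more than counting error, which the interval also leaves out. Their chi-square per gene of 10 to 1000 counts was 2.42 for FGF2 and 2.46 for NC, against about 1 for counting error. A gene was called higher or lower in FGF2 cells when library 1 and the other reads of library 2 each lay at least 1.5-fold from both NC read sets on the same side, provided that its read sets averaged 50 counts or more, which 11000 genes did. Over those 11000 genes, 345 (3.14%) were called higher and 569 (5.17%) lower, with libraries scaled by the trimmed mean of M values (TMM), which sets the scale by the bulk of genes. Scaling by total count turned these into 264 and 718.

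Urokinase (PLAU) and tissue plasminogen activator (PLAT) are secreted serine proteases that cut plasminogen into plasmin, a broad protease that digests fibrin and matrix proteins and activates other proteases. The urokinase receptor, a glycolipid-anchored protein encoded by PLAUR, holds urokinase on the cell surface, and plasminogen receptors hold the substrate there. Serpins trap their target proteases by a cleaved loop, and the system is known for its part in cell migration and invasion in gastric and other carcinomas.

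The labelled cell type was checked against marker genes. Among 6 epithelial markers, 3 keratin genes were abundant but did not differ alike. In FGF2 and NC library 2, KRT8 stood at 190.6 and 270.3 FPKM (log2 fold change -0.42), KRT18 at 199.1 and 193.0 FPKM (0.13) and KRT19, called higher, at 47.6 and 27.3 FPKM (0.89). EPCAM stood at 0.576 and 0.518 FPKM in the FGF2 libraries, against 0.846 and 1.19 FPKM in the NC libraries, and CLDN4 and CLDN7 stayed under 1 FPKM, which goes against the epithelial origin of the line. The 7 fibroblast markers summed to 66.0 and 65.8 FPKM in the FGF2 libraries, against 123.3 and 125.7 FPKM in the NC libraries, with COL1A2 and FAP at 0 in all 4 libraries. COL1A1 made up 60.0 and 59.4 FPKM of this in the FGF2 libraries, against 100.8 and 103.8 FPKM in the NC libraries (-0.72, called lower). PDGFRB, also called lower at -1.65, stood at 5.96 and 6.29 FPKM in the FGF2 libraries, against 21.6 and 21.0 FPKM in the NC libraries. COL3A1 had 6 and 6 counts in the FGF2 libraries, against 65 and 137 in the NC libraries, and DCN and LUM had 0 in both FGF2 libraries, against 8 and 12 in NC library 2. The 4 endothelial markers summed to at most 0.361 FPKM and the 4 blood or immune markers to at most 1.07 FPKM in any library. In bulk RNA, fewer cells of a type and less RNA per cell cannot be told apart, and the part of these markers in the values that follow was not tested.

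The receptor gene showed the widest gap, and both activators and their inhibitor SERPINE2 were also more abundant in FGF2 cells. Of the 9 genes, 6 reached the count minimum. Of these, 5 were called higher in FGF2 cells (PLAUR, SERPINB8, PLAU, SERPINE2 and PLAT), 0 were called lower, and PLGRKT was neither. The shares of called genes given above stand beside this count only as a description, because the genes were chosen with this contrast known. The median log2 fold change of the 6 was 1.07, and that of all 11000 genes was 0.03.

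**Figure D1:**
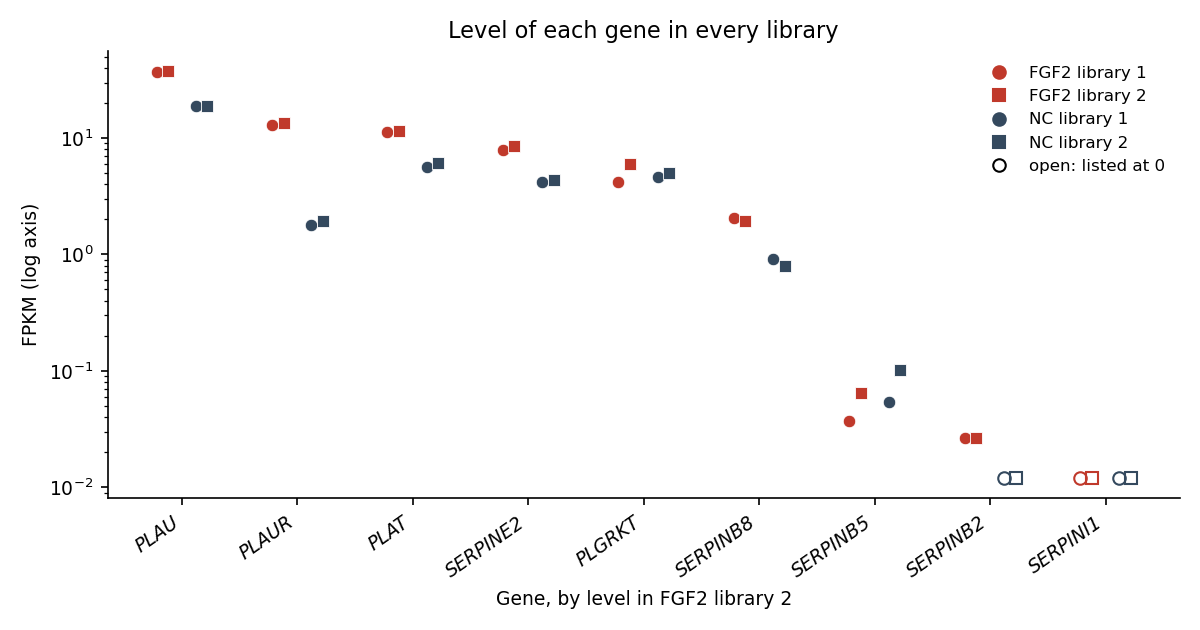
Level of each of the 9 genes in FPKM (log axis) in the 2 FGF2 libraries (red, left) and the 2 NC libraries (dark, right), with circles for library 1, squares for library 2 and open symbols at the foot, off the scale, for values listed at 0. PLAUR shows the widest separation, at 13.5 FPKM in FGF2 library 2 and 1.95 FPKM in NC library 2, and SERPINI1 is at 0 throughout.

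PLAUR (ENSG00000011422, chromosome 19, 43646095 to 43670547 on the minus strand, GRCh38) stood at 13.1 and 13.5 FPKM in the FGF2 libraries, against 1.79 and 1.95 FPKM in the NC libraries. Both FGF2 values lay far above both NC values, but the values of a group share reads and are not replicates, here and for the genes below. The deeper libraries held 1659 and 238 PLAUR counts for FGF2 and NC, a log2 fold change of 2.87 (2.68 to 3.08), which is 7.31-fold. Library 1 gave 2.96 and the other reads of library 2 gave 2.78. It ranked 14 of the 11000 genes by fold change.

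The promoter of PLAUR is shown because its gene had the widest fold change of the 9, beside those of SERPINB8, the other gene whose window holds the same motif, and of PLAU, which encodes the receptor's ligand. AP-1 and the PEA3 group of ETS factors are known nuclear effectors of ERK signalling. Each window runs from 250 bases before to 50 bases after an annotated start (RefSeq, GRCh38.p14, gene strand, 5′ to 3′). Capitals mark, on either strand and in the order of searching, the AP-1 motif TGACTCA, then the PEA3-type ETS core, spelled AGGAAG, and finally the more general ETS core, which was spelled CGGAAG. No letters of these motifs overlapped in the windows shown.
PLAUR, chr19:43670120-43670419, minus strand: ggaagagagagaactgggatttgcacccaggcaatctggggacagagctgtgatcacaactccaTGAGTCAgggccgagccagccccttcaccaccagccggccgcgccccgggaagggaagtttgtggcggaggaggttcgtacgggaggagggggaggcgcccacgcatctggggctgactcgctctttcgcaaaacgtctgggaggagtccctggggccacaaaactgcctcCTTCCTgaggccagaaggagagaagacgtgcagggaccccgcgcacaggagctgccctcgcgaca
SERPINB8, chr18:63969831-63970130, plus strand: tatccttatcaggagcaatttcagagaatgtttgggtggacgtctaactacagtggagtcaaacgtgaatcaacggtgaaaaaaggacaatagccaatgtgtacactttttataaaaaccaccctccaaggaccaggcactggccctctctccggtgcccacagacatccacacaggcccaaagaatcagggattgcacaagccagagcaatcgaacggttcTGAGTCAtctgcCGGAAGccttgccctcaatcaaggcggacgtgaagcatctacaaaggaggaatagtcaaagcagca
PLAU, chr10:73910882-73911181, plus strand: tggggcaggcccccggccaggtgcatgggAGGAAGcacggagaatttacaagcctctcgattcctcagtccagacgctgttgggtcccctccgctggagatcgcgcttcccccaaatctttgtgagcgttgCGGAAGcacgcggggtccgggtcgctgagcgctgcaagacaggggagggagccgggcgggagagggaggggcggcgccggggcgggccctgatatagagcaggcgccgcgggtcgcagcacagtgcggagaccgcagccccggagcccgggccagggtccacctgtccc
The AP-1 motif begins 186 bases before the start in PLAUR and 28 bases before it in SERPINB8. A PEA3-type core begins 15 bases before the PLAUR start, and a general ETS core 16 bases before that of SERPINB8. The PLAU window shown holds no AP-1 motif but a PEA3-type core 221 bases and a general ETS core 119 bases before the start, and the window of the other annotated PLAU start holds none of the motifs. Of 35116 promoter windows in the table, 4.95% hold the AP-1 motif, 33.6% the PEA3-type core and 19.5% the general ETS core on either strand. The table had entries for 8 of the 9 genes, all but PLAT, with 10 windows in all. The AP-1 motif was in 2 of them, the PEA3-type core in 5 and the general ETS core in 4. Sequence outside the windows was not searched, so a missing motif speaks only for the window. The cores were not limited to called genes, since the PLGRKT window holds both kinds and those of SERPINB5 and SERPINB2 hold the PEA3-type core. Nor did the called gene SERPINE2 hold an AP-1 motif or a PEA3-type core. One of its windows holds a general ETS core and the other none of these motifs. A match is a run of letters and not a measured binding site.

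Both plasminogen activators were about equally higher in FGF2 cells. PLAU (ENSG00000122861, chromosome 10, 73909177 to 73917497, plus strand) stood at 37.1 and 37.6 FPKM in the FGF2 libraries, against 19.0 and 18.8 FPKM in the NC libraries. It was the most abundant of the 9 genes in either group. Its log2 fold change was 1.09 (1.00 to 1.18) from 3064 and 1514 counts, and library 1 gave 1.06 and the reads beyond it 1.12. In PLAU, 31.1% of the exon sequence lies opposite exons of C10orf55, and the library kit does not mark strand, so reads of these genes cannot be told apart there. C10orf55 itself was counted at 12 and 5 reads in the deeper FGF2 and NC libraries.

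PLAT (ENSG00000104368, chromosome 8, 42175233 to 42207724, minus strand) stood at 11.2 and 11.6 FPKM in the FGF2 libraries, against 5.59 and 6.07 FPKM in the NC libraries. The log2 fold change was 1.02 (0.92 to 1.13), where library 1 gave 1.09 and the reads beyond it 0.95. PLAU exceeded PLAT per unit length by 3.24 times in FGF2 library 2 and by 3.09 times in NC library 2.

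Relative to its ligand, the receptor transcript was far more abundant in FGF2 cells. The FPKM ratio of PLAU to PLAUR was 2.84 and 2.79 in the FGF2 libraries, against 10.6 and 9.61 in the NC libraries. By FPKM in library 2 the order was PLAU, PLAUR, PLAT, SERPINE2, PLGRKT and SERPINB8 in FGF2 cells, against PLAU, PLAT, PLGRKT, SERPINE2, PLAUR and SERPINB8 in NC cells. PLAUR thus stood second in FGF2 cells and next to last of these 6 in NC cells.

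**Figure D2:**
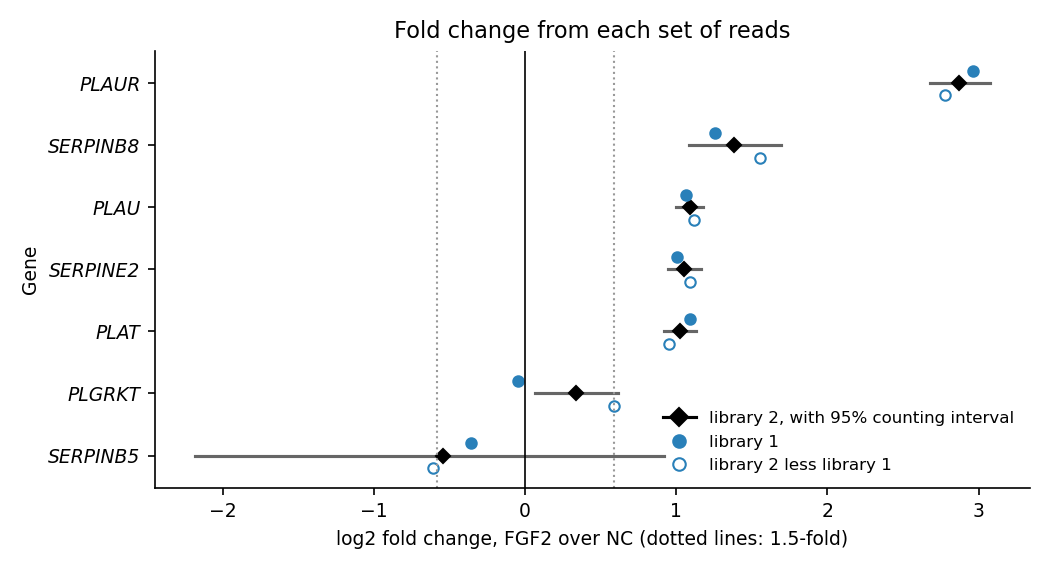
Log2 fold change of FGF2 over NC for the 7 genes with more than 3 counts in library 2, from library 2 (diamonds with 95% counting intervals), library 1 (filled circles) and the other reads of library 2 (open circles). For PLAUR, SERPINB8, PLAU, SERPINE2 and PLAT every symbol lies right of the 1.5-fold line, while the library 1 symbol of PLGRKT falls left of 0 and its other symbols right of it.

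The serpins divided into those with clear signal and those with almost none. SERPINE2 (ENSG00000135919, chromosome 2, 223975112 to 224039319, minus strand), whose product protease nexin-1 inhibits urokinase, tissue plasminogen activator and thrombin, stood at 7.87 and 8.53 FPKM in the FGF2 libraries, against 4.18 and 4.37 FPKM in the NC libraries. The log2 fold change was 1.05 (0.95 to 1.16), for which library 1 gave 1.01 and the reads beyond it 1.09. SERPINB8 (ENSG00000166401, chromosome 18, 63969925 to 64019779, plus strand), an intracellular serpin that inhibits furin in vitro, stood at 2.06 and 1.95 FPKM in the FGF2 libraries, against 0.920 and 0.792 FPKM in the NC libraries. Its log2 fold change was 1.38 (1.09 to 1.70) from 316 and 127 counts, library 1 giving 1.26 and the reads beyond it 1.56, so this value is less precise than those of the activators. Of its exon sequence, 6.31% is shared on the same strand and 4.38% on the opposite strand with neighbouring genes.

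The other serpins among the 9 genes gave no usable fold change. SERPINB5 (ENSG00000206075, chromosome 18, 63476761 to 63505085, plus strand), which encodes maspin, a clade B serpin without protease inhibition, was counted 2 and 7 times in FGF2 cells, against 3 and 11 times in NC cells, and its log2 fold change of -0.54 had an interval of -2.19 to 0.92. SERPINB2 (ENSG00000197632, chromosome 18, 63871692 to 63903890, plus strand), the gene of plasminogen activator inhibitor type 2, had 1 and 2 counts in the FGF2 libraries and 0 in both NC libraries, where a count of 0 allows up to 0.04 FPKM in the deeper one. Of its exon sequence, 19.9% is shared with SERPINB10 on the same strand, which was at 0. SERPINI1 (ENSG00000163536, chromosome 3, 167735243 to 167825568, plus strand), which encodes neuroserpin, the tissue plasminogen activator inhibitor of the nervous system, was at 0 in all 4 libraries, which allows up to 0.045 FPKM in the deeper FGF2 library and 0.0454 FPKM in the deeper NC library.

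PLGRKT (ENSG00000107020, chromosome 9, 5357973 to 5437878, minus strand), a membrane protein gene whose product binds plasminogen through a terminal lysine, stood at 4.18 and 6.02 FPKM in the FGF2 libraries, against 4.62 and 5.05 FPKM in the NC libraries. Here the FGF2 values lay on both sides of the NC values. The log2 fold change was 0.34 (0.07 to 0.61) in the deeper libraries, but -0.05 from library 1 and 0.59 from the other reads, so its direction depended on the reads used. Of the 248 PLGRKT counts in FGF2 library 2, library 1 held 34.7% (exact binomial interval 28.8% to 41.0%), while it held 49.97% of the group's counts over all genes.

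**Figure D3:**
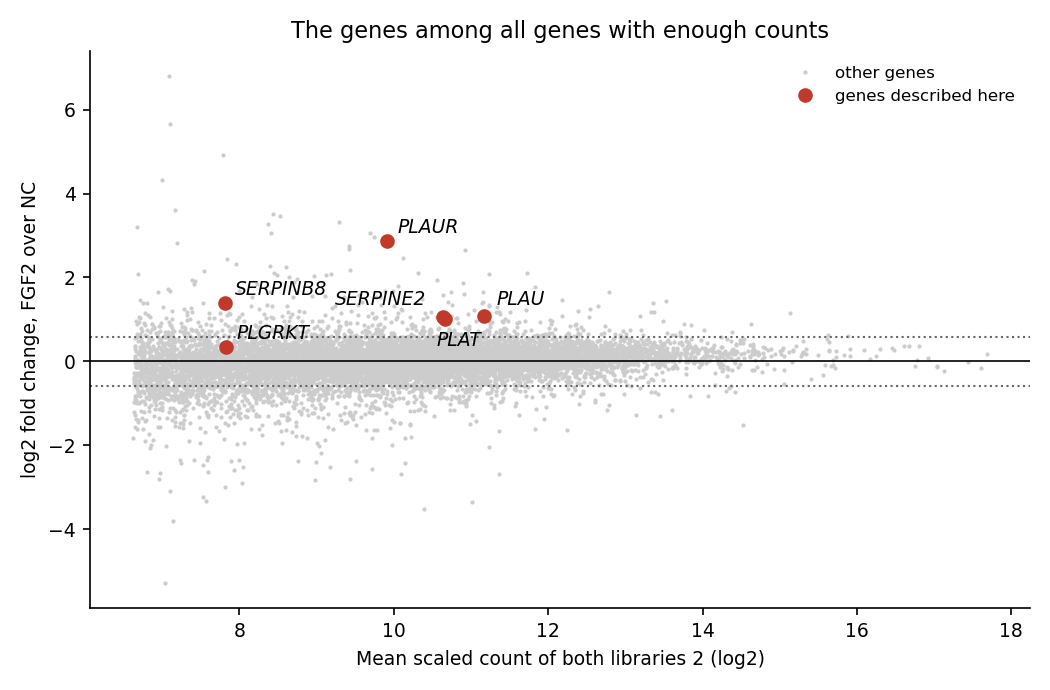
Log2 fold change of FGF2 over NC against the mean scaled count of the libraries 2 (log2) for 11000 genes (grey), with the 6 genes that reached the count minimum in red and the 1.5-fold lines dotted. PLAUR, at 2.87, ranks 14 by fold change, where the highest gene stands at 6.80. The other 4 called genes lie between 1.02 and 1.38, and PLGRKT lies inside the lines.

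Genes whose values over the 4 read sets lay nearest to those of each called gene were looked up among protein-coding genes. With 1 sample per group this likeness is little more than a similar fold change. Nearest to PLAUR were IL11 (2.96), the integrin gene ITGA2 (2.82) and the transglutaminase gene TGM2 (3.06). PLAU lay nearest to EPHA2 (1.08), NRP1 (1.13) and PLXNA2 (1.15), and PLAT to PPP1R18 (0.97), ZNF703 (0.96) and AFAP1L1 (1.09). SERPINE2 lay nearest to SGK1 (1.04), RFFL (1.03) and MALL (1.04), and SERPINB8 to SLC2A3 (1.28), NPAS2 (1.39) and NAV3 (1.27).

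The wider plasminogen system was read from 9 gene lists by role, holding 106 genes in all, of which 47 reached the count minimum, with 14 called higher and 4 lower and a median of 0.09. Over all 11000 genes the shares were 3.14% higher and 5.17% lower, to be held beside the counts of each list below. The lists hold the 9 genes again, so the 14 include the 5 genes already called higher above and are not separate from them. Like the 9 genes, the lists were drawn up with earlier results known. Among the activators and their direct inhibitors, 4 of 10 listed genes reached the minimum and all 4 were called higher, with a median of 1.07. These were PLAUR, PLAU, SERPINE2 and PLAT. The FPKM sum of PLAU and PLAT was 48.3 and 49.2 in the FGF2 libraries, against 24.6 and 24.9 in the NC libraries. Plasminogen itself (PLG) was at 0 in all 4 libraries.

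The clade B serpins, a mostly intracellular branch, had 5 measured genes with a median of -0.26, with 2 called higher and 1 lower. On chromosome 18, where 10 of the 13 listed genes lie between 63476761 and 64019779, 2 reached the minimum and both were called higher, namely SERPINB8 and SERPINB7 (2.51 and 0.846 FPKM in the deeper FGF2 and NC libraries, log2 fold change 1.65, 1.23 to 2.10). Another 7 of the 10 had at most 3 counts in the deeper libraries, and the remaining one was SERPINB5, with its -0.54 from few counts. On chromosome 6 all 3 listed genes reached the minimum and had values below 0. SERPINB1, an inhibitor of neutrophil serine proteases, was called lower at -0.80 (-0.98 to -0.61), with 4.38 FPKM in FGF2 library 2 and 8.09 FPKM in NC library 2. SERPINB6 at -0.45 and SERPINB9 at -0.26 were neither. Summed over each cluster, the level was 4.56 FPKM in the deeper FGF2 library and 1.74 FPKM in the deeper NC library for chromosome 18, and 14.0 and 21.1 FPKM for chromosome 6. Of 20 listed serpins outside clade B, 2 reached the minimum, with a median of 0.53, and 1 of them, SERPINE2, was called higher. The other, the collagen chaperone gene SERPINH1, stood at 0.02. Of all 33 serpin genes listed, 16 were at 0 in every library.

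**Figure D4:**
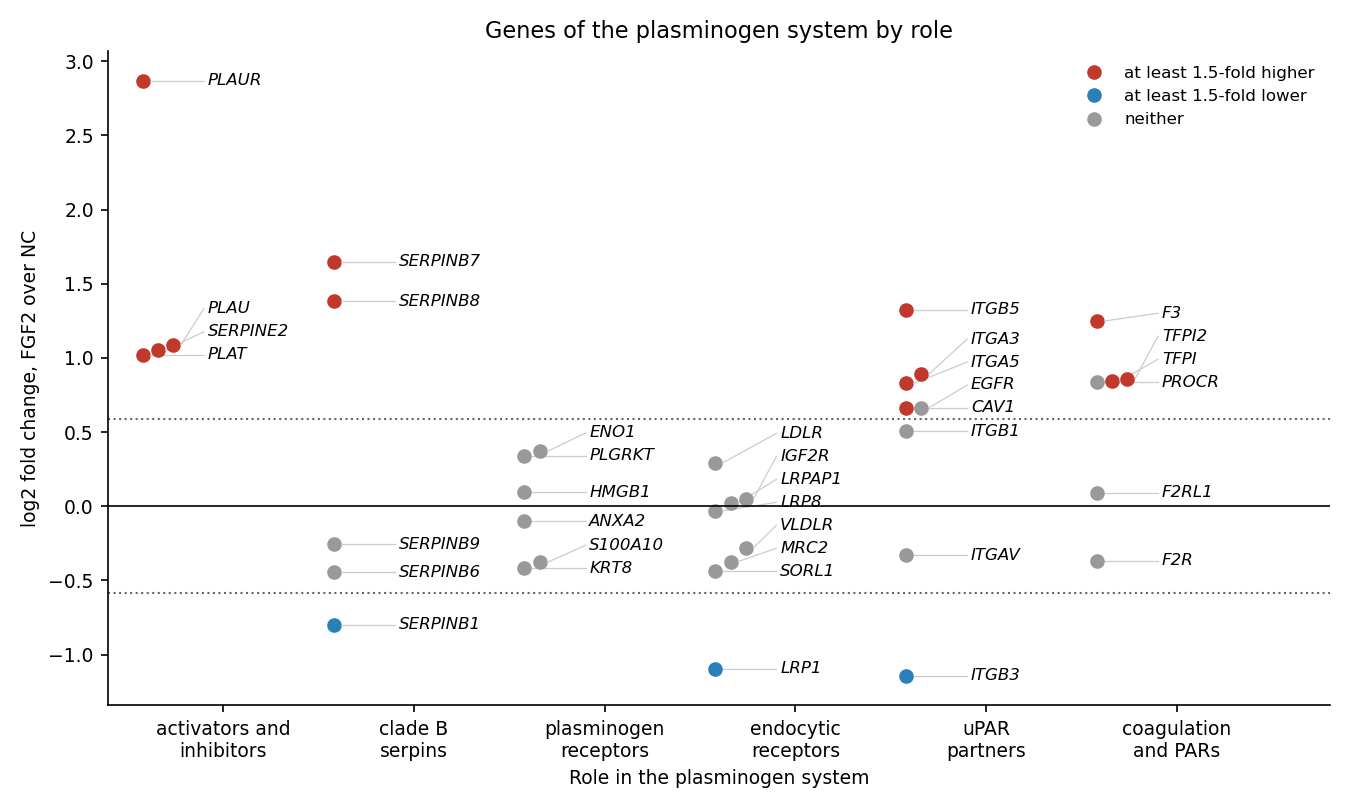
Log2 fold change of FGF2 over NC in the deeper libraries for genes with enough counts, in 6 role lists of the plasminogen system, with genes called at least 1.5-fold higher (red) or lower (blue) in both read sets and the others in grey. The activators, their receptor and SERPINE2 all lie above the upper dotted line, whereas the plasminogen receptors lie between the lines, and EGFR and PROCR lie above the line in library 2 but failed in 1 read set.

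Of 7 genes in the list of plasminogen and its receptors, 6 reached the minimum and 0 were called in either direction. Their values lay on both sides of 0, between -0.42 and 0.37, with a median of -0.0044, and at a 1.2-fold bound ENO1 was called higher and KRT8 and S100A10 lower. ENO1, whose enolase also binds plasminogen on cell surfaces, was the most abundant, at 862.5 FPKM in FGF2 library 2 and 708.8 FPKM in NC library 2 (0.37, 0.36 to 0.38). S100A10 stood at -0.38 and its partner ANXA2 at -0.10.

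Among 8 measured endocytic receptors of activator and serpin complexes, 1 was called lower and 0 higher, with a median of -0.16. The lower one was LRP1, which takes up inhibited urokinase together with its receptor, at 2.72 and 2.72 FPKM in the FGF2 libraries, against 6.13 and 6.19 FPKM in the NC libraries, a log2 fold change of -1.10 (-1.18 to -1.01). IGF2R, the most abundant of them, stood at 0.05 (0.01 to 0.09). Of 3 measured proteases that can activate pro-urokinase, 0 were called and the median was 0.06. CTSL, the most abundant, stood at 0.56 (0.46 to 0.66).

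Of 8 measured partners of the urokinase receptor, 4 were called higher and 1 lower, with a median of 0.66. The integrin genes ITGB5 (1.32, 1.23 to 1.41), ITGA3 (0.89, 0.86 to 0.93) and ITGA5 (0.83, 0.75 to 0.90) were higher. CAV1, a caveola coat gene, was also called at 0.66 (0.61 to 0.71), a call that was lost with scaling by total count, with DESeq2 size factors and with library 1 alone. ITGB3 was called lower at -1.14 (-1.56 to -0.74) from 73 and 170 counts, and 51.6% of its exon sequence is shared with AC068234.1 on the same strand. AC068234.1 itself was counted at 0 in every library. ITGB1, the most abundant partner, stood at 0.50 and was neither.

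In the family of small proteins that share the fold of the urokinase receptor, 6 of 17 listed genes reached the minimum, with a median of 0.11. LY6K was called higher at 1.54 (1.36 to 1.72), library 1 giving 1.92 and the reads beyond it 1.18. Of its exon sequence, 71.0% lies opposite LNCOC1, so its count is uncertain. LNCOC1 itself was counted at 5 and 15 reads in the deeper FGF2 and NC libraries, against 948 and 343 for LY6K. LYPD6 was called lower at -0.80 (-0.94 to -0.66), and LY6E, the most abundant, stood at -0.02. Among coagulation starters and protease receptors, 3 of 6 measured genes were called higher and 0 lower, with a median of 0.84. F3, which encodes tissue factor, stood at 103.2 FPKM in FGF2 library 2 and 46.1 FPKM in NC library 2 (1.25, 1.19 to 1.31). Its inhibitor genes TFPI (0.84, 0.73 to 0.97) and TFPI2 (0.86, 0.74 to 0.98) were also higher.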

How the data were processed

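Gene counts and FPKM (fragments scaled by exon length and library total) were deposited by the authors in 1 table per library, for 2 FGF2 and 2 NC libraries. Per the submitters' processing notes, HISAT2, HTSeq 0.13.5 and GRCh38 were used; no source used here names the annotation release. Per the labels' protocols, polyadenylated RNA went into NEBNext Ultra libraries, which do not mark strand. Coordinates are from GENCODE v29 (GRCh38), whose merged exon lengths equal those implied by the FPKM values of the listed genes with counts.

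The members, gene lists and rules were chosen with earlier results of these data known. Groups were taken from the titles. Libraries were compared first: between libraries of a group the chi-square per gene of 10 to 1000 counts was 0.827 (FGF2) and 0.806 (NC), below 1, and 2.42 and 2.46 between disjoint read sets. A value near 1 is what counting error alone gives for separate reads. The disjoint read sets thus differed by more than that, and whether they come from 1 culture was not tested. Because the libraries share reads, each group was taken as 1 sample. Read sets were library 1 and library 2 less library 1. TMM scaling (edgeR 4.0.16) used genes kept by filterByExpr, 0.5 was added to counts before the log, and intervals were Clopper-Pearson (SciPy 1.17.1). One gene of the lists was left out and is not reported here. The size rule was tested on simulated data drawn with counting error only. Since the real read sets of a group differed by more, that test cannot show how often the rule errs here. The genes named are the 9 genes, each listed gene that was called, the most abundant measured gene of each list, and the 3 nearest genes of each called gene by Euclidean distance, while SERPINB6, SERPINB9, S100A10, ANXA2, KRT8, PLG, EGFR, PROCR, CD177, VTN and LYNX1, and the cell type markers given with values, were added after their values were seen. Alternatives were the scaling (total count, or size factors from DESeq2 1.42.0), fold bound, count minimum, choice of library, added count and FPKM.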

Additional observations from a re-analysis of the deposited data

How the results depend on the processing

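With 1 sample per group, no spread between cultures is known and depth limits only the low genes. No paired analysis was possible because no result comes from a test and each group was taken as 1 sample. The count of 5 higher genes of 9 became 3 at a 2-fold bound (PLAUR, SERPINB8 and PLAU). It was 5 with library 1 alone and 6, with PLGRKT, from library 2 less library 1. It stayed at 5 in the other 6 alternatives, and 0 genes were lower in all 9. Over all genes, 345 higher and 569 lower became 1402 and 1471 at 1.2-fold and 122 and 179 at 2-fold. They were 586 and 1187 when the laxer filterByExpr filter, which kept 15030 genes, replaced the count minimum. Library 1 alone gave 653 and 956, library 2 less library 1 gave 685 and 1010, and library 2 alone gave 587 and 882. Scaling by total count gave 264 and 718 and shifted the median gene by -0.09. Over the lists, 14 higher and 4 lower genes became 20 and 9 at 1.2-fold. They became 15 and 6 with the filterByExpr filter (CD177 newly higher, VTN and LYNX1 newly lower). On log2(FPKM + 1), values were 0.97 (PLAU), 2.29 (PLAUR), 0.83 (PLAT), 0.83 (SERPINE2) and 0.72 (SERPINB8), the added 1 being large beside low levels, and on log2(FPKM + 0.1) PLAU was 1.00. Leaving out a library of 1 or both groups gave 1.06 to 1.12 for PLAU, 2.78 to 2.99 for PLAUR, 0.95 to 1.13 for PLAT, 0.94 to 1.11 for SERPINE2 and 1.16 to 1.56 for SERPINB8. PLGRKT ranged from -0.17 to 0.59 and SERPINB5 from -1.12 to 0.21, so neither had a stable direction. Of 77 values of those among the 9 genes with a fold change, 67 stayed within their counting intervals and the others moved outside. Of 143 values of the 13 other called genes, 118 stayed within their intervals, 25 moved outside and 0 reversed. SERPINB7 and ITGB3 missed a minimum of 100 counts.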
